A study of Arabidopsis thaliana with 10 samples.

Results

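Leaves of *oxt6* plants that had been complemented with AtCPSF30 were compared with leaves of wild-type *Arabidopsis*, in order to find which gene functions the complemented plants do not share with the wild-type. The comparison held 7 of the 10 arrays of the series, 3 of the wild-type and 4 of complemented plants, chosen by their titles. The remaining 3 arrays, of the *oxt6* mutant, entered the estimate of the spread and are given where they bear on a value. The plants were 30 days old, of the Columbia background, and grown in soil under short days, and each RNA sample was a pool of several plants, of which the study hybridized the preparations of highest quality. The *oxt6* mutant carries a T-DNA in the first exon of At1g30460 on chromosome 1 and has neither of the gene's mRNAs. The complemented plants are *oxt6* plants with a genomic fragment of the gene behind its own upstream sequence that can give only the smaller mRNA and protein. They came from 2 independent transformants, lines 5 and 6, with 2 arrays each, and unlike the wild-type they carry the T-DNA and the transgene and have no larger protein.

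CPSF30 is a zinc finger subunit of the complex that recognises the poly(A) signal of a pre-mRNA, so that the transcript is cut and given its poly(A) tail. In plants the same gene also makes a larger protein, in which the CPSF30 part is joined to a YTH domain. Such domains bind RNA that carries N6-methyladenosine. The wild-type makes both proteins, *oxt6* neither, and the complemented plants the smaller of them.

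Each value is an intensity that the authors summarised per probe set with PLIER, linear in scale and never below 16, which is called the floor here. Differences were taken as log2(value + 1) in complemented minus wild-type plants, and of the 22746 probe sets that are not controls the brightest 54.7% were tested with limma. Median intensity ran from 43.9 to 57.9 over the 7 arrays, and 0.84% to 5.43% of probe sets stood at the floor. The lists of leaf genes had a median wild-type intensity of 4198 for antenna proteins, 437 for the Calvin cycle and 170.5 for photorespiration. Over all probe sets tested it was 102.6. Of the antenna genes, *LHCB4.1* (At5g01530, an antenna protein of photosystem II) read 3940 to 4432 in the wild-type and 7233 to 9018 in the complemented plants. Of the other marker lists, those for seed and for cell division had no probe set that could be named here, so they say nothing about signal. The lists for flower and shoot apex and for guard cell and epidermis had only 2 and 1 named probe sets, none among those tested. Of 15 root marker loci, 1 was tested, *PYK10* (At3g09260, a beta-glucosidase of endoplasmic reticulum bodies), which read 77.1, 129 and 91.2 in the wild-type and 253, 274, 331 and 304 in the complemented plants. The part of other cell types in the results was not tested.

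The probe set of the complemented gene itself recognises only the larger mRNA. It read 39.2, 38.7 and 71.2 in the wild-type, 16 and 18.7 in line 5, and 16 and 16 in line 6, so that the groups did not overlap and 3 of the 4 complemented arrays stood at the floor. It was too dim to be tested, and the smaller mRNA that the transgene makes was not measured.

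The 2 groups also differed in a measure of the RNA itself. On these arrays the control genes for actin, GAPDH and ubiquitin have a probe set near the 3' end and another near the 5' end, and their log2 ratio rises when the labelled RNA holds less of the 5' part. Averaged over the 3 controls, this 3'/5' signal was 2.19, 2.0 and 2.37 in the wild-type, 0.08 and 0.10 in line 5, and −0.05 and 0.03 in line 6. The complemented plants thus lay 2.15 below the wild-type on the log2 scale with no overlap, which 1 of the 35 possible divisions of the arrays gave (two-sided exact permutation test, p = 0.0286, the smallest that this design allows). Of the separate controls, actin averaged 3.04 in the wild-type and 0.99 in the complemented plants, GAPDH 2.19 and −0.39, and ubiquitin 1.32 and −0.49. With an older set of control probe sets the mean also fell, by 1.44, although there actin went the other way, from 3.17 to 4.09. The bacterial spike-in BioB read 249 to 344 in the wild-type and 84.8 to 129 in the complemented plants. Since each group lies on its own side of this signal, the signal and the genotype cannot be told apart in these arrays.

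**Figure D1:**
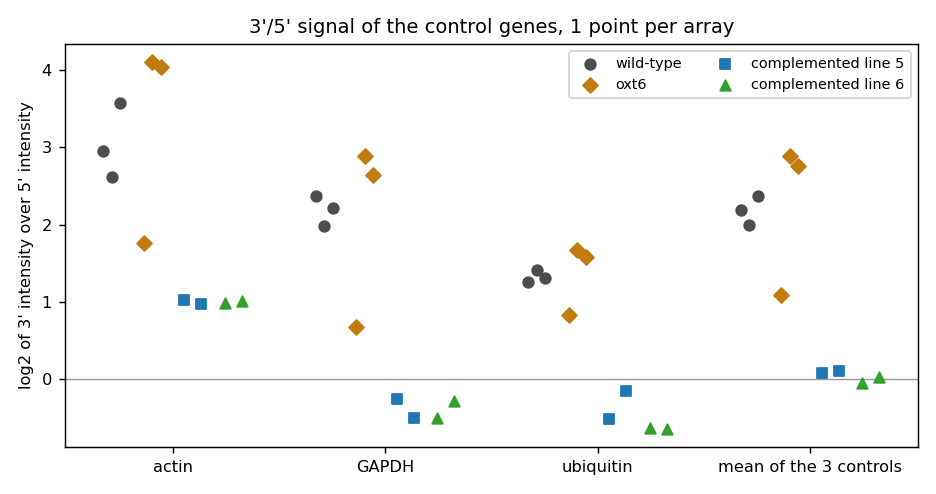
Each point is the log2 ratio of the 3' to the 5' intensity on 1 array, for each of 3 control genes and for their mean, in 3 wild-type, 3 *oxt6* and 4 complemented arrays. For the mean, the complemented arrays lie between −0.05 and 0.10 and the wild-type arrays between 2.0 and 2.37, while *oxt6* replicate 1, at 1.09, lies below the other 2 *oxt6* arrays at 2.88 and 2.75.

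The mutant replicates also differed in this signal, and the difference between them uses none of the 7 arrays. The calls set beside it use the 7 arrays, with the *oxt6* arrays in the estimate of the spread. *oxt6* replicate 1 had a signal of 1.09, against 2.88 and 2.75 in replicates 2 and 3. Across the probe sets tested, the log2 difference of replicate 1 from the other *oxt6* arrays and the difference of complemented from wild-type plants had a Pearson r of 0.54 and a Spearman rho of 0.49 (genes on the same arrays, which are not independent replicates, so with no p-value). Over all probe sets tested, 31.3% were higher in *oxt6* replicate 1, beside 56.9% of those called higher in the complemented plants. Of those called lower, 87.6% were not higher in that replicate. Of the decile of probe sets highest in *oxt6* replicate 1, 87.3% were called higher in the complemented plants and 2.57% lower, with a median log2 difference of 1.77. Of the decile lowest there, 11.9% were called higher and 49.5% lower. For this reason most groups of genes below are given also from a fit that takes the signal of each array as a covariate. In that fit the slope rests mainly on *oxt6* replicate 1 and the complemented arrays lie outside the range of the other arrays.

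Differences also followed gene length, the distance from the start to the end of the annotated gene, known for 7240 of the probe sets tested. In the decile with the shortest genes, 78 to 1057 bases, 77.5% were called lower and 6.35% higher, and the median log2 difference was −1.23. From there the median rose to 0.30 in decile 6 and was 0.12 in the longest, where 39.4% were called higher and 28.3% lower. The relation was present in both lines, with medians of −1.07 in line 5 and −1.37 in line 6 for the shortest genes, and Spearman's rho between length and difference over all these genes was 0.34. It was 0.32 with the signal as a covariate and −0.11 for *oxt6* minus wild-type. Many group medians below are therefore also given relative to the decile of gene length to which each member belongs. The part of the signal or of gene length in any single difference was not tested.

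**Figure D2:**
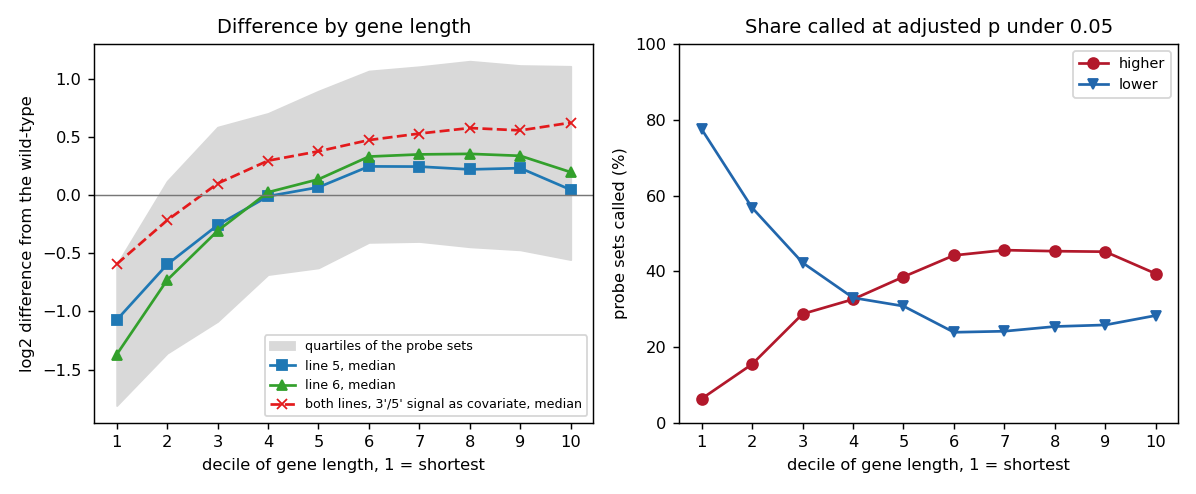
Left, median log2 difference from the wild-type by decile of gene length for each complemented line and for both lines with the 3'/5' signal as a covariate, with the range between the quartiles of the probe sets shaded. Right, the share of probe sets called higher or lower, where the shortest genes were 77.5% lower and 6.35% higher.

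At an adjusted p under 0.05, 8947 probe sets differed between complemented and wild-type plants, 71.8% of those tested. Of these, 4733 (38.0%) were higher and 4214 (33.8%) lower in the complemented plants, and 3034 (24.4%) and 2299 (18.5%) differed by 2-fold or more. This fit takes the 4 complemented arrays as independent, although arrays of 1 line share a transformant. With line as a random block, 4226 probe sets were higher and 3511 lower, at a correlation within a line of 0.80. The values of the 2 groups did not overlap for 74.3% of probe sets. The median log2 difference over all probe sets was 0.04, with a median absolute difference of 0.85 and a median standard error of 0.19. For all 8947 both lines lay on the same side of the wild-type mean. Of the probe sets tested, 7559 were called the same way in the comparison of each line alone with the wild-type. The calls rest on the mean of these lines, and each line was compared with the same wild-type arrays. This agreement is therefore no separate replication. Line 5 and line 6 themselves differed at 531 probe sets, 4.26%. With the signal as a covariate 3045 were higher (24.5%) and 1068 lower (8.58%), the median standard error was 0.35, and the median difference was 0.36. Of the probe sets called, 3602 were called the same way in both fits and 21 in opposite directions. Since so many probe sets differed, a list is described by its counts and median beside these shares. Its counts and median with the covariate are to be read beside 24.5% higher, 8.58% lower and a median of 0.36.

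The highest difference among genes with a symbol was that of *SAT32* (At1g27760), named for a role in salt tolerance. It read 87.5, 89.1 and 111 in the wild-type, 1981 and 2600 in line 5, and 3208 and 3176 in line 6, a 28.0-fold difference (log2 4.80 ± 0.19 SE, adjusted p = 9.1e-09). The *oxt6* plants, at 78.6 to 83.5, read close to the wild-type, and the difference was 4.75 with the signal as a covariate. *psaA*, the chloroplast gene for a reaction centre protein of photosystem I, rose from 19.9 to 52.8 in the wild-type to 506 to 1207 in the complemented plants (log2 4.48, and 4.48 with the covariate). Differences of *PWD* (3.29, an enzyme that phosphorylates starch) and *SCPL49* (3.04, a carboxypeptidase-like protein) were 3.20 and 2.31 with the covariate. Others of the highest differences became smaller with it. *FER* (At3g51550), the FERONIA receptor kinase that acts in growth and fertilisation, read 313 to 399 in the wild-type and 3245 to 4682 in the complemented plants (log2 3.50), and 0.81 with the covariate (adjusted p = 0.078), and *oxt6* replicate 1, with 1085, stood above the other *oxt6* arrays at 242 and 229. Likewise *TROL*, which tethers an electron carrier to the thylakoid, went from 3.30 to 1.04, *ALDH10A8*, an aldehyde dehydrogenase, from 3.35 to 1.43, and *PDC2*, a pyruvate decarboxylase, from 3.15 to 0.14. The RNA helicase gene *PRH75* (3.96) and the histone H1-related *HON4* (3.50) kept an adjusted p under 0.05 with the covariate, at 1.84 and 2.19.

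The lowest difference among genes with a symbol was that of *GRX480* (At1g28480), a glutaredoxin that salicylate induces and that acts on the jasmonate pathway. It read 892, 842 and 763 in the wild-type, 49.4 and 65.3 in line 5, and 38.4 and 31.5 in line 6, 18.3-fold lower (log2 −4.19 ± 0.23 SE, adjusted p = 7.4e-08). Its *oxt6* values of 57.4, 79 and 89.3 were also below all wild-type arrays. *RL6* (At1g75250), a small MYB-like protein, fell from 330 to 389 in the wild-type to 30.1 to 81.9 in the complemented plants (log2 −2.77), whereas *oxt6* read 787 to 880. The peptide hormone gene *RALFL32* (−2.85), the F-box gene *UCL1* (−2.93), the mitochondrial gene *nad1* (−2.90) and *ATG8D* (−2.75) were the other nuclear or mitochondrial genes among the 12 lowest that belong to none of the groups below. Of these, *nad1* and *ATG8D* kept an adjusted p under 0.05 with the covariate, while *RALFL32* was −2.14 (adjusted p = 0.059) and *UCL1* −1.36 (adjusted p = 0.40). In *UCL1*, line 5 replicate 2 read 37.8 and the other complemented arrays 16 to 16.2, at or just above the floor.

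**Figure D3:**
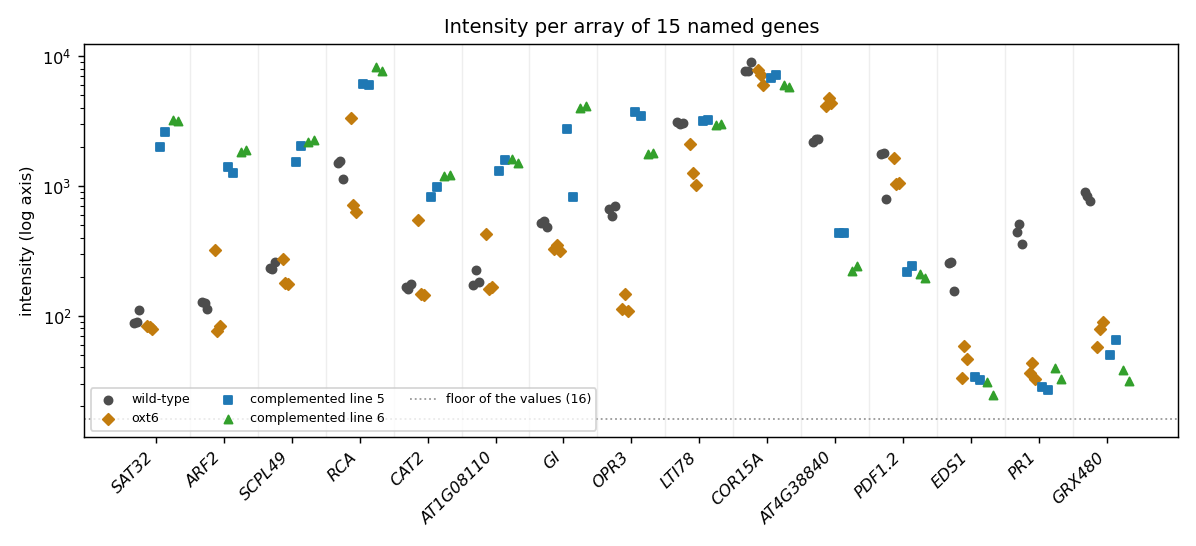
Intensity on a log axis of 15 named genes, 1 point per array, in 3 wild-type, 3 *oxt6* and 4 complemented arrays, with the floor of 16 as a dotted line. *SAT32* rises from 87.5 to 111 in the wild-type to 1981 to 3208 in the complemented plants, *PR1* and *GRX480* are low in *oxt6* and complemented plants alike, and *LTI78* is level between wild-type and complemented plants.

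The few genes of photosynthetic carbon metabolism that were tested were higher in the complemented plants, several of them with a smaller or no difference in the fit with the signal. The Calvin cycle fixes CO2, and 3 of 3 members tested, from 19 loci listed, rose (*RCA*, *SBPASE* and *PRK*), at a median log2 difference of 2.32. Relative to genes of like length the median was 2.04, and with the covariate it was 1.42 with 2 of the 3 called higher. *RCA* (At2g39730), rubisco activase, read 1504, 1569 and 1140 in the wild-type, 6067 and 6043 in line 5, and 8232 and 7673 in line 6 (log2 2.32 ± 0.43 SE, adjusted p = 0.00033). With the covariate it was −0.55 (adjusted p = 0.17), and *oxt6* replicate 1 read 3351 where the other *oxt6* arrays read 712 and 631. *SBPASE*, sedoheptulose-bisphosphatase, read 156 to 194 in the wild-type, 672 and 570 in line 5, and 1209 and 1207 in line 6, and was 1.52 with the covariate (adjusted p = 0.044). *PRK*, phosphoribulokinase, read 322 to 536 and 1986 to 3395, a log2 difference of 2.61, and 1.42 with the covariate (adjusted p = 0.026). In whole leaves, fewer cells of a type and less RNA per cell cannot be told apart.

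Photorespiration, which recovers the product of rubisco's reaction with oxygen, had 4 of 4 members tested higher, from 14 loci listed. The median was 2.76, 2.48 relative to length and 0.82 with the covariate. The catalase gene *CAT2*, described below, is 1 of the 4 and is counted again among the catalases and detoxifying genes. *HPR*, the peroxisomal hydroxypyruvate reductase, read 353 to 380 in the wild-type and 2272 to 3375 in the complemented plants (log2 2.93). The glycine decarboxylase T protein At1g11860 rose from 67.7 to 101 in the wild-type to 429 to 936 (log2 2.89), and glycerate kinase At1g80380 rose only from 170 to 178 to 210 to 245 (log2 0.40), a call lost at 0.37 to 0.41 without wild-type replicate 1 or 2, line 5 replicate 2 or either array of line 6, and with line as a random block (adjusted p = 0.11). With the covariate the glycerate kinase was at 0.81 (adjusted p = 0.033), while *HPR* at 0.83 and At1g11860 at 1.37 did not pass.

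Of 6 chlorophyll synthesis genes tested, 4 rose and none fell (median 0.80, 0.52 relative to length and 0.41 with the covariate, where 1 was called higher). *PORB* (At4g27440), protochlorophyllide oxidoreductase, read 337 to 455 in the wild-type and 1737 to 2581 in the complemented plants (log2 2.39), but −0.61 with the covariate. *CHLM*, which methylates a chlorophyll precursor, was 2.03 higher and *HEMB1*, an enzyme of tetrapyrrole synthesis, 0.88 higher, and neither passed with the covariate. The nuclear genes of the light reactions were closer to the wild-type in the unadjusted values only. The median was 0.51 for 3 antenna probe sets and 0.15 for 4 of photosystem subunits. Relative to length these medians were 1.16 and 0.80, and with the covariate −1.15 and −0.51, where 2 of each list were called lower. *LHCB4.1* differed by 0.97, *LHCB4.2* by 0.51 (95% interval −0.08 to 1.1) and *LHCB4.3* by −0.68, and of these only *LHCB4.2* missed the threshold. With line as a random block *LHCB4.1* and *LHCB4.3* missed it too (adjusted p = 0.055 and 0.058). The call of *LHCB4.1* was lost without any single array other than line 5 replicate 2, at 0.92 to 1.01. With the covariate *LHCB4.1* and *LHCB4.2* turned to −1.38 and −1.15. Of 4 photosystem subunit genes 1 was called, *PSAE-1*, at 0.41, while *PSBW* read 6094 to 6721 in the wild-type and 5500 to 5813 in the complemented plants, a log2 difference of −0.20 with a 95% interval of −0.51 to 0.10.

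Enzymes that remove reactive oxygen species formed a second group that was mostly higher. Of 27 probe sets that the study lists as detoxifying, 17 rose and 1 fell, 13 of the rises by 2-fold or more, and the median was 0.98 (0.88 relative to length). With the covariate 6 were higher and 1 lower, with a median of 0.50. Catalases break down hydrogen peroxide, and *CAT2* (At4g35090), the main leaf enzyme of the peroxisome, read 165, 161 and 174 in the wild-type, 820 and 983 in line 5, and 1192 and 1223 in line 6 (log2 2.63 ± 0.37 SE, adjusted p = 3.03e-05). *CAT1* rose by 1.83 and *CAT3* by 1.69, from 3005 to 3649 in the wild-type to 9794 to 11733. None of the 3 was called higher with the covariate, where *CAT2* was at 0.36, *CAT1* at 0.77, and *CAT3* was called lower at −1.16.

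Superoxide dismutases, which turn superoxide into hydrogen peroxide, had 4 of 7 probe sets higher and none lower at a median of 1.15 (1.17 relative to length), and here the covariate left the median at 1.28 with 3 called higher. *FSD1*, the iron enzyme, read 125, 54.4 and 106 in the wild-type and 390, 390, 452 and 418 in the complemented plants (log2 2.19). In *oxt6* it was above the wild-type, at 439 in replicate 1. Replicates 2 and 3, at 290 and 274, lay below every complemented array. *MSD1*, the mitochondrial manganese enzyme, rose by 2.04, *CCS*, the chaperone that loads copper, by 1.83, and *CSD3*, the peroxisomal copper enzyme, by 1.15. Of these *CCS* alone did not pass with the covariate, at 1.46 (adjusted p = 0.066).

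Ascorbate peroxidases and the enzymes that regenerate ascorbate had 7 of 10 probe sets higher and none lower (median 0.98, 0.74 relative to length and 0.33 with the covariate, where 1 was called higher). *APX3* (At4g35000), of the peroxisomal membrane, read 98.8 to 140 in the wild-type and 641 to 973 in the complemented plants (log2 2.86), and *MDAR1*, monodehydroascorbate reductase, 117 to 147 and 550 to 667 (log2 2.22). With the covariate these were −0.07 and 0.12, and the cytosolic *APX1*, 1.23 higher without it, was −0.41. The smaller difference of *APX6*, at 1.06, was 1.1 with the covariate (adjusted p = 0.020). Among 5 peroxiredoxin probe sets 2 rose, with *PRXQ* of the chloroplast 1.36 higher and 1.05 with the covariate, while the median of the 5 went from 0.50 to −0.17. The share that rose, 40%, was near the 38.0% over all probe sets tested, and none fell.

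Of 52 glutathione-related probe sets in the study's list, 32 rose and 6 fell, with a median of 0.69 that was 0.72 relative to length and 0.45 with the covariate (17 higher and 2 lower). Within this list the glyoxalases, which use glutathione to detoxify methylglyoxal, had 14 of 14 called, 11 higher and 3 lower, with a median of 1.28. This median was 1.16 relative to length and 1.11 with the covariate, where 8 were higher and none lower. At1g08110, a glyoxalase I family protein, read 173, 224 and 182 in the wild-type, 1312 and 1572 in line 5, and 1607 and 1513 in line 6 (log2 2.96 ± 0.28 SE, adjusted p = 1.7e-06, and 1.27 with the covariate). At1g67280 (2.71) and *GLX1* (2.1) of the same family were at 1.55 and 1.22 with it, and the glyoxalase II gene *GLX2-5* at 0.66 without it, no longer called with line as a random block (adjusted p = 0.058). At2g32090 went the other way, from 3789 to 4215 in the wild-type to 1428 and 1536 in line 5 and 590 and 551 in line 6 (log2 −2.11), with line 6 below line 5.

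Glutathione transferases, which couple glutathione to toxic compounds, had 11 of 22 probe sets higher and 2 lower, at a median of 0.30 (0.70 relative to length, 0.21 with the covariate). *GSTU5* (At2g29450) read 112, 117 and 84.8 in the wild-type and 651, 663, 483 and 468 in the complemented plants, and *oxt6* at 297 to 322 lay between them. Its log2 difference of 2.42 was 2.45 with the covariate. *ERD9* was 2.47 higher and 3.31 with the covariate, At5g44000 1.89 and 1.72, and *GSTF10* 1.48 and 0.51, the last no longer past the threshold. Of 6 glutathione peroxidase probe sets, 3 rose and 1 fell. *GPX6* was 2.02 higher and *GPX1* 2.0 higher, although *GPX1* read 1422 in line 5 replicate 2 and 2868 to 3076 in the other complemented arrays. *GPX5* was 0.63 higher, and without wild-type replicate 3 it was 0.42 and not called. *GPX8* fell from 447 to 560 in the wild-type to 108 to 138 (log2 −2.03, and −1.53 with the covariate).

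Thioredoxins and glutaredoxins, small proteins that reduce disulfides in other proteins, differed in direction. Of 55 thioredoxin-related probe sets 29 rose and 12 fell (median 0.43, 0.38 relative to length and 0.47 with the covariate). The largest differences were those of *DGAT3* (2.80), listed by the study with the thioredoxins but known for making storage lipid, *ACHT4* (2.21), an atypical chloroplast thioredoxin, *TDX* (2.19), a thioredoxin with chaperone repeats, and At3g27570 (1.67). *DGAT3* read 307 to 548 in the wild-type and 2765 to 2992 in the complemented plants, and *TDX* 23.8 to 26.9 and 110 to 134. With the covariate these were 1.37, 1.05, 1.70 and 1.53, and of the 4 only *ACHT4* missed the threshold there. Of 21 glutaredoxin probe sets, 1 rose and 11 fell, at a median of −0.55. Most are short genes, and their median was 0.13 relative to length and 0.15 with the covariate. Besides *GRX480*, the largest falls were those of At5g18600 (−2.56), At4g15690 (−2.47) and *GRXS13* (−2.41), a glutaredoxin of the same class as *GRX480*. *GRXS13* read 578 to 744 in the wild-type and 114 to 145 in the complemented plants, and was −2.32 with the covariate and −2.51 relative to length. The rise, chosen after its values were seen, was that of At2g20270, from 81.5 to 95.6 in the wild-type to 156 to 184.

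**Figure D4:**
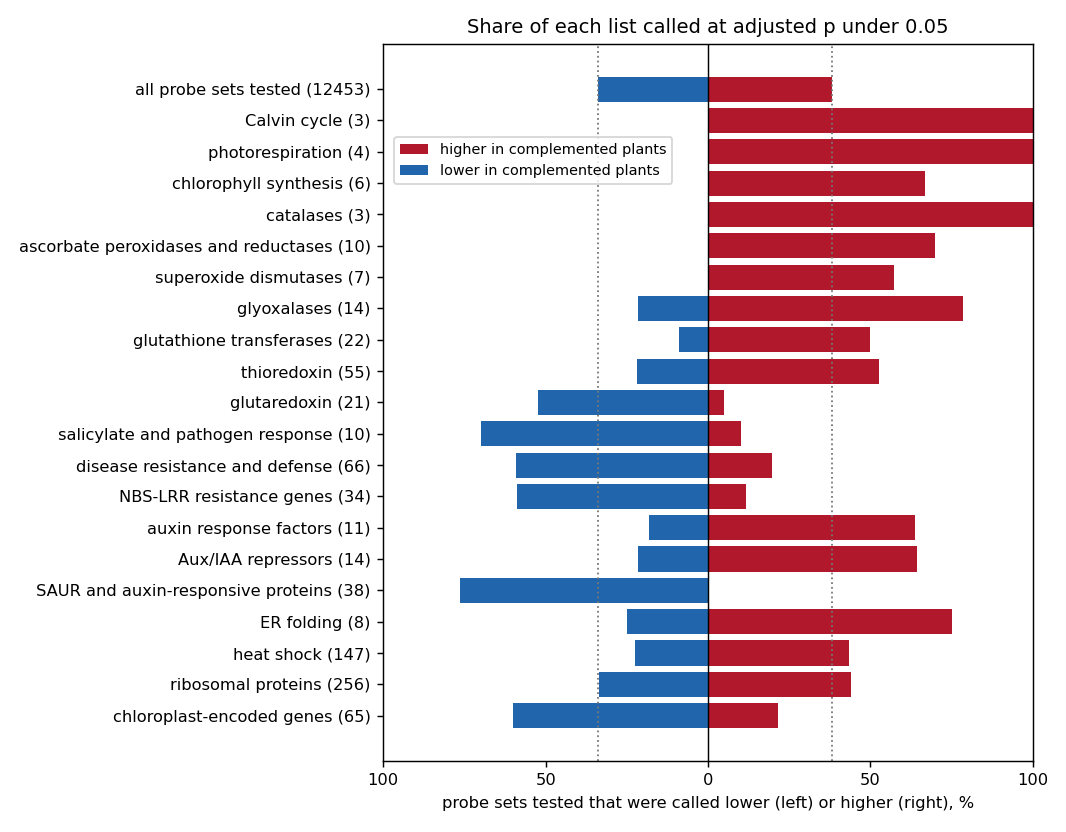
Share of the tested probe sets of each list that were called lower (left) or higher (right) in the complemented plants at an adjusted p under 0.05, with the number tested in brackets. Dotted lines mark the shares over all probe sets tested, 38.0% higher and 33.8% lower.

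Genes of the salicylate and pathogen response were lower in the complemented plants. Salicylate accumulates in infected leaves and, through NPR1, switches on pathogenesis-related genes. Of 10 members tested 7 fell, 6 of them by 2-fold or more, and 1 rose. *GRX480*, described above and counted among the glutaredoxins, is 1 of the 7. The median was −1.41, −1.42 relative to length and −1.43 with the covariate, where 5 were lower and none higher. *PR1* (At2g14610), the standard marker of the response, read 442, 508 and 360 in the wild-type, 28.1 and 27 in line 5, and 39.7 and 32.7 in line 6 (13.3-fold lower, log2 −3.74 ± 0.18 SE, adjusted p = 3.29e-08). It was −3.78 with the covariate (adjusted p = 0.00045). *EDS1* (At3g48090), the lipase-like protein that links resistance proteins to salicylate, read 254, 261 and 154 in the wild-type and 24.4 to 33.5 in the complemented plants (log2 −2.82). *PR5* read 638, 848 and 588, against 70.3 and 66.6 in line 5 and 141 and 149 in line 6 (log2 −2.76), and *BGL2*, the beta-glucanase also called PR2, fell by 1.70. All 4 passed with the covariate, at −2.19 for *EDS1*, −2.96 for *PR5* and −2.40 for *BGL2*. In *oxt6* all 4 also lay below every wild-type array, with *PR1* at 32.6 to 43.3, *EDS1* at 33.4 to 58.0, *PR5* at 44.0 to 58.3 and *BGL2* at 24.1 to 43.9.

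Chosen after their values were seen, *NPR1* itself read 250 to 301 in the wild-type and 116 to 153 in the complemented plants (log2 −1.11), and the rise was that of the cell wall-associated kinase *WAK1*, from 90.2 to 129 to 146 to 275 (log2 0.91), which was at 27.2 to 35.9 in *oxt6*. *NPR3*, a receptor related to NPR1, differed by 0.36 (95% interval −0.11 to 0.82).

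Of 66 probe sets in the study's list of disease resistance and defense genes, 39 fell and 13 rose, with a median of −0.73 that was −0.75 relative to length and −0.24 with the covariate (14 lower and 7 higher). At1g57630, a protein with a TIR domain, read 772, 733 and 399 in the wild-type and 30.8 to 40.1 in the complemented plants (log2 −4.08, and −2.43 with the covariate), and 27.6 to 87.3 in *oxt6*. Resistance genes of the NBS-LRR kind, which encode the intracellular receptors of pathogen effectors, had 20 of 34 probe sets lower and 4 higher (median −0.63). With the covariate 4 were lower and 4 higher, at a median of −0.13, and a median relative to length is void because 79.4% of the members had a length. At1g63350 fell by 1.92, from 129 to 156 to 31.4 to 41.8, and the TIR domain gene At1g72920 by 1.99. At1g66090 fell by 2.09 with the lines apart, at 144 and 180 in line 5 and 37.3 and 30.4 in line 6. *RLM3*, needed for resistance to fungi, was higher, at 19 to 32.5 in the wild-type and 105 to 115 in the complemented plants (log2 2.11, and 1.73 with the covariate).

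Of the jasmonate genes 3 were tested and went in different directions. *PDF1.2* (At5g44420), an antifungal defensin that jasmonate and ethylene induce, read 1765, 1798 and 788 in the wild-type and 195 to 240 in the complemented plants (log2 −2.65, and −3.63 with the covariate), while *oxt6* read 1028 to 1627. *OPR3* (At2g06050), an enzyme of jasmonate synthesis, read 661, 582 and 703 in the wild-type, 3728 and 3439 in line 5, and 1765 and 1793 in line 6, against 108 to 148 in *oxt6*. It was 3.90-fold higher than in the wild-type (log2 1.96 ± 0.27 SE, adjusted p = 2.45e-05), and 2.36 with the covariate (adjusted p = 0.011), with line 5 above line 6.

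Auxin is sensed by F-box receptors, which let Aux/IAA repressors be destroyed and so free the auxin response factors (ARFs). The 100 auxin-related probe sets tested, of which 32 rose and 43 fell (median −0.21), split by these roles. Of 11 ARF probe sets 7 rose and 2 fell, at a median of 1.38, 1.1 relative to length and 1.28 with the covariate (8 higher, none lower). Both probe sets of *ARF2* (At5g62000), a repressor of growth, were among the highest differences. The brighter read 128, 125 and 112 in the wild-type, 1405 and 1252 in line 5, and 1825 and 1879 in line 6 (log2 3.68), and the dimmer 21.7 to 47.7 and 291 to 439 (log2 3.49). They differed with the covariate, at 1.22 and 3.04. *ARF11* was 1.71 higher, *ARF10* 1.42 higher, and *ARF19* differed by 0.17 (95% interval −0.17 to 0.51). The falls, chosen after their values were seen, were those of *ARF6* (−1.20) and *ARF8* (−1.04), a pair that acts in flower maturation and is held down by the same microRNA, and neither passed with the covariate.

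Aux/IAA repressors had 9 of 14 probe sets higher and 3 lower (median 0.85, also 0.85 relative to length, and 0.76 with the covariate). *IAA16* read 211 to 246 in the wild-type and 1504 to 1804 in the complemented plants (log2 2.84), and *IAA9*, *IAA7* and *IAA8* were 2.63, 2.50 and 1.36 higher. Of these, *IAA7* did not pass with the covariate, at 0.51. The receptor gene *AFB5* was 2.99 higher and 1.33 with the covariate. Of 9 auxin transport probe sets 4 rose and 3 fell, at a median of 0.28 (0.04 relative to length and 0.27 with the covariate). These shares, 44.4% and 33.3%, were near those over all probe sets tested (38.0% and 33.8%). *PIN7* of auxin efflux was 2.60 higher, At2g17500 1.63 higher and *ABCB19* 1.52 higher, of which At2g17500 and *ABCB19* passed with the covariate, at 2.33 and 1.07. The lowest of the list, At1g71090, read 375 to 472 in the wild-type and 195 to 237 in the complemented plants (log2 −0.98, and −0.65 with the covariate, past the threshold only without it).

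The SAUR genes, small and rapidly induced by auxin, went the other way. None of 38 probe sets of SAUR and auxin-responsive proteins rose and 29 fell, 26 by 2-fold or more, at a median of −1.42. These genes are short, with a median length of 896 bases, and relative to genes of like length their median was −0.20. With the covariate it was −0.57 with 8 lower and 2 higher. At4g38840 read 2178 to 2297 in the wild-type, 434 and 435 in line 5 and 221 and 240 in line 6 (log2 −2.83), and *SAUR63* 437 to 508 and 54.2 to 102 (log2 −2.69). Against the wild-type both read higher in *oxt6*, at 4149 to 4792 and 1317 to 2060, and both passed with the covariate, at −2.56 and −1.94. At4g38860 (−2.60) and *SAUR68* (−2.37) also fell.

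Of 31 ethylene-related probe sets 9 rose and 12 fell (median −0.09), and with the covariate 9 were higher and 1 lower (median 0.05). Without the covariate the shares were 29% and 38.7%, beside 38.0% and 33.8% over all probe sets tested. *EFE* (At1g05010), which catalyses the last step of ethylene synthesis, read 325, 288 and 281 in the wild-type and 1560 to 1709 in the complemented plants (log2 2.46, and 1.95 with the covariate), and *EIL1*, a transcription factor of the ethylene signal, 39.4 to 51.9 and 174 to 231 (log2 2.1, and 1.88). *ERF15*, which binds ethylene-responsive promoters, fell from 380 to 558 to 52.8 to 77.2 (log2 −2.82, and −1.87), and At3g19500 fell by 2.07.

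Among 5 clock genes tested 3 rose and none fell (median 1.28, and 1.78 relative to length), while with the covariate none was called higher and 1 lower, at a median of 0.77. *GI* (At1g22770), GIGANTEA, which acts in the evening of the clock and in flowering, read 522, 538 and 486 in the wild-type, 2759 and 823 in line 5, and 3965 and 4156 in line 6 (log2 2.26, and 2.79 without line 5 replicate 2), and did not pass with the covariate (2.13, adjusted p = 0.10). The glycine-rich RNA-binding proteins *GRP7* and *CCR1* were 1.52 and 1.28 higher, and with the covariate 0.94 and 0.77, past the threshold for neither. The time of day of harvest was not used here. Of the cold and dehydration genes, *COR47* rose by 1.75 (−0.14 with the covariate), *COR15B* by 1.0 and *COR413-PM1* by 0.73, and *COR15A* fell by 0.34, a call lost without any single array other than line 5 replicate 2, at −0.39 to −0.26, and with line as a random block (adjusted p = 0.095). *LTI78* read 3026 to 3098 in the wild-type and 2938 to 3204 in the complemented plants (log2 0.01, 95% interval −0.44 to 0.46). The study's list of cold shock genes had 7 of 18 higher and 6 lower (median 0.03), and that of ubiquitin-conjugating enzymes 7 of 22 in each direction (median 0.02). The shares were 38.9% and 33.3% in the first and 31.8% each in the second. Over all probe sets tested they were 38.0% and 33.8%.

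Protein folding in the endoplasmic reticulum depends on chaperones and on disulfide isomerases, and 6 of 8 members tested rose and 2 fell (median 1.08, 0.88 relative to length, 0.46 with the covariate). *PDIL1-1* (At1g21750), a protein disulfide isomerase, read 98.7, 110 and 75.7 in the wild-type and 321 to 538 in the complemented plants (log2 2.15). The isomerase genes *UNE5* and *PDIL1-4* were 2.32 and 2.1 higher, and of these 3 *PDIL1-4* alone passed with the covariate, at 1.66. *BZIP60* (At1g42990), a transcription factor that stress in this compartment activates, was lower, at 1665, 1846 and 1519 in the wild-type and 664, 580, 411 and 372 in the complemented plants (log2 −1.76, and −1.57 with the covariate). The other fall, chosen after its values were seen, was that of *PDIL2-2* (−1.34).

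Of 147 probe sets in the study's heat shock list 64 rose and 33 fell (median 0.33, 0.26 relative to length, 0.68 with the covariate, where 44 were higher and 5 lower). HSP70 chaperones had 4 of 8 higher and 2 lower at a median of 0.90, which was 0.79 with the covariate but −0.19 relative to length. *HSC70-1* (At5g02500), the abundant cytosolic chaperone, read 1392 to 1672 in the wild-type and 6056 to 8907 in the complemented plants (log2 2.23, and 0.94 with the covariate, adjusted p = 0.035), and the chloroplast *cpHsc70-1* and mitochondrial *mtHsc70-1* were 2.1 and 1.70 higher. Of 10 heat shock factor probe sets 1 was higher, *HSF3* at 0.82, and 4 were lower, of which *HSFA8* fell by 1.29. None of 5 small heat shock proteins rose and 2 fell.

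Of 256 ribosomal protein probe sets 113 rose and 86 fell, at a median of 0.20, or 44.1% and 33.6%, near the shares over all probe sets tested (38.0% and 33.8%). The median was 0.23 with the covariate, where 57 were higher and 26 lower, and 68 rose and 56 fell by 2-fold or more. The shares of 60S proteins (44 higher and 40 lower of 106) and 40S proteins (23 and 21 of 59) were alike. *RPL5B* (At5g39740) read 44.1 to 81.5 in the wild-type and 385 to 491 in the complemented plants (log2 2.68, and 1.44 with the covariate), *RPL4* rose by 2.61 and At4g02230 by 2.60. A probe set shared by At5g03850 and At3g10090, which encode ribosomal protein S28, fell from 1382 to 1931 to 183 to 362 (log2 −2.62, and −1.38 with the covariate). Relative to genes of like length the median of the list was 0.59.

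Of 65 probe sets for chloroplast-encoded genes 39 fell and 14 rose, at a median of −0.93, and −0.71 with the covariate. Transcripts of this genome mostly carry no long poly(A) tail. The members are short, with a median of 531 bases, and their median relative to length was 0.11. The spread ran from *petN*, a small subunit of the cytochrome b6f complex, at −3.83 to *psaA* at 4.48. *petN* read 1668, 696 and 4029 in the wild-type, 286 and 225 in line 5, and 46.9 and 61.3 in line 6, and did not pass with the covariate (−3.11, adjusted p = 0.11). Its difference was −4.46 without wild-type replicate 2 and −3.19 without wild-type replicate 3. *rps15*, a ribosomal protein gene, fell from 285 to 812 to 46.3 to 95.6 (log2 −2.81). *atpA*, a subunit of the ATP synthase, rose from 170 to 262 in the wild-type to 1237 and 876 in line 5 and 2332 and 3519 in line 6 (log2 2.93).

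RNA-processing genes bear on the transgene's own function. Of 5 genes for cleavage and polyadenylation factors tested, 3 rose and none fell. At5g65260, a nuclear poly(A)-binding protein, read 88.2, 89.4 and 89.3 in the wild-type and 346, 326, 502 and 511 in the complemented plants (log2 2.2, and 1.94 with the covariate, adjusted p = 0.0042). At4g25550, the CFIm25 subunit of cleavage factor I, was 1.48 higher and At1g27595, related to symplekin, 0.57 higher, and neither passed with the covariate. The call of At1g27595 was lost without wild-type replicate 1 or 3 or either array of line 6, at 0.43 to 0.54, and with line as a random block (adjusted p = 0.0999). Of the lists for N6-methyladenosine, At4g02940, the demethylase ALKBH10B, fell from 159 to 214 in the wild-type to 28.3 to 49.4 (log2 −2.14, and −1.36 with the covariate, adjusted p = 0.030), and its relative At2g17970 fell by 0.99. At5g01160, the methylation factor HAKAI, differed by 0.25 (95% interval −0.13 to 0.63). The U2AF splicing factor genes *ATU2AF65A* and *ATU2AF35A*, which recognise the 3' end of introns, were 1.48 and 2.1 higher and did not pass with the covariate.

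Among the remaining lists, 3 of 7 proteasome genes rose and 1 fell (42.9% and 14.3%). Over all probe sets tested the shares were 38.0% and 33.8%. *RPN12a* (2.06) and At4g24820 (2.04) of the regulatory lid passed with the covariate, at 1.55 and 1.01, while At5g23540 (1.22) was −0.08. The 3 glucosinolate genes tested rose, *CYP83B1* by 1.48, *BCAT4* by 1.25 and *UGT74B1* by 0.93, of which *UGT74B1* passed with the covariate at 1.04. Of 9 cell wall genes 3 rose and 4 fell (33.3% and 44.4%), with *COB* (At5g60920), which guides cellulose deposition, at 143 to 162 in the wild-type and 1145 to 1290 in the complemented plants (log2 2.98, and 0.62 with the covariate) and the expansin *EXPA8* at −1.02 (−1.34 with the covariate). Of 4 senescence genes, 3 fell and none rose. These were the autophagy genes *ATG8E* (−1.64), *APG8A* (−1.18) and *ATG8H* (−0.97), none of which passed with the covariate. *ATG8E* read 4280 to 4697 in the wild-type, 2463 and 2535 in line 5, and 882 and 802 in line 6. Vacuolar H+-ATPase genes had 4 of 9 in each direction (44.4% each).

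For part of the probe sets the complemented plants stayed near the wild-type. The 95% interval of the difference lay within 2-fold for 4377 probe sets, 35.1% of those tested. Of the lists above, the cold shock list had 10 of 18 such members, the heat shock list 65 of 147, the ribosomal list 91 of 256, the salicylate list 1 of 10, the glyoxalases none of 14 and the Calvin cycle none of 3.

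**Figure D5:**
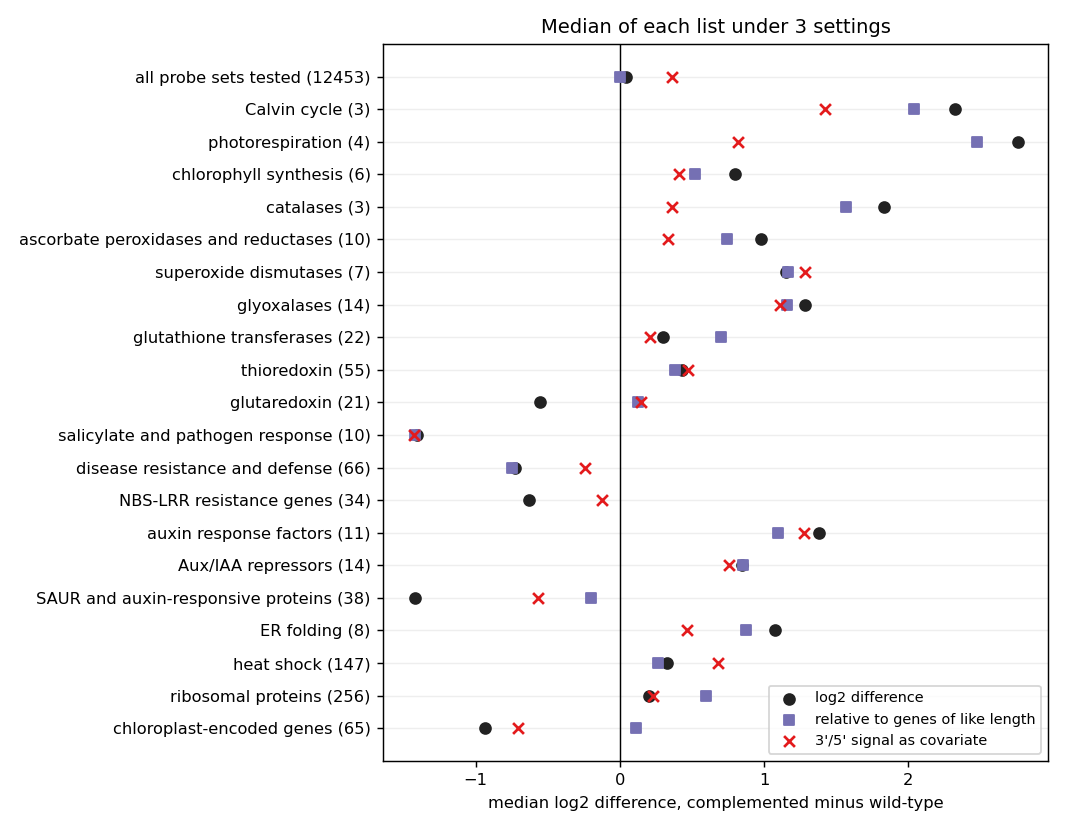
Median log2 difference of each list, complemented minus wild-type (circles), the same relative to genes of like length (squares) and with the 3'/5' signal as a covariate (crosses), with the number of probe sets tested in brackets. The salicylate list lies at −1.41, −1.42 and −1.43, the glyoxalases at 1.28, 1.16 and 1.11, and the SAUR list moves from −1.42 to −0.20 relative to length. No square is drawn for the NBS-LRR genes, of which too few have a length.

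Differences of 2-fold or more that ran against gene length were scarcer than over all probe sets. Over all probe sets tested, 24.4% were called higher by as much and 18.5% lower. Of 1448 probe sets in the 2 deciles of shortest genes, 70 were called higher by 2-fold or more, and of 1448 in the 2 deciles of longest genes 175 were called lower by as much. Among the genes described here, *GSTU5*, *GPX6*, *DGAT3* and *RPL4* were rises among the 3 shortest deciles, and *EDS1*, *NPR1*, At4g02940 and At1g63350 falls among the 4 longest deciles. These ranges are wider than the deciles counted above. Among calls of any size, 28.7% were higher in decile 3 and 24.2% lower in decile 7. Calls of 2-fold or more were not counted for these deciles.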

How the data were processed

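RNA of leaves was hybridized to ATH1 arrays. The authors summarised the scans with PLIER in ArrayAssist, whose version is not given in the sources used here, and the deposited values are linear intensities, none below 16. The arrays have 64 control probe sets, which were left out. Of the rest, the 54.7% with the highest mean of log2(intensity + 1), as many as the study's total set, were tested with limma 3.58.1 under R 4.3.3, with 1 mean each for wild-type, *oxt6* and complemented plants and a trended variance, two-sided, with Benjamini-Hochberg adjustment over all of them. Complemented replicates of 1 line share a transformant, and p-values measure the spread between these samples. Pools of plants and the number of arrays limit the precision. In simulated data for this comparison on all probe sets tested, a log2 change of 1 was called at 75 of 100 probe sets and of 2 at 95 of 100, with 8 false calls. The simulated arrays were drawn independently, with few changed probe sets and no 3'/5' difference between groups. The real arrays of 1 line are correlated, so these counts do not give the error of the real comparison.

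Genes were named from the platform's annotation and the study's annotation columns, and gene lengths come from RefSeq (TAIR10.1). The files name no genome build, so no coordinates are given. In all, 14018 probe sets have 1 gene named here, of which 7278 were tested. Of 653 textbook loci, 131 had a probe set named here. Lists came from the study's annotation groups, which it drew from probe sets passing its own detection filter, and from textbook knowledge. The members and lists were chosen with earlier results of these data known. Named genes are the 12 highest and 12 lowest called differences without overlap among genes with a symbol, key genes of the lists, and of each list up to 4 of the largest called differences and the smallest. Some genes that this rule takes are not named. The study's tables of ratios and p-values were not used. Python 3.11.15 and matplotlib 3.10.9 gave the figures.

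Alternatives were the methods' t-test, median centring, quantile normalization, 16 in place of 1 as offset, the whole array or its 8000 brightest probe sets, the 7 arrays alone, blocks for replicate number and line, each line alone or averaged, array weights, the 3'/5' signal as a covariate, an adjusted p under 0.01, and leaving out each array. Differences relative to the decile of gene length were added after seeing the data.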

Additional observations from a re-analysis of the deposited data

Results flagged for a closer look

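In 19 of the 146 genes named above the 2 complemented lines differed from each other at an adjusted p under 0.05 from limma, beside 4.26% of all probe sets tested. Differences are given as log2 of line 5 minus line 6. Line 5 was above line 6 for *petN* (2.22), *RALFL32* (1.53), At5g18600 (1.17), At4g38860 (1.64), At4g38840 (0.91), *RL6* (1.19), At1g66090 (2.22), *BZIP60* (0.66), *SAUR68* (1.32), At1g72920 (0.93), *ATG8D* (1.13), At2g32090 (1.38) and *ATG8E* (1.57), all of which had fallen from the wild-type, so that line 6 lay farther from it. For *PR5* (−1.07), line 5 lay farther below the wild-type. For *atpA* (−1.46), *PWD* (−0.93), *SBPASE* (−0.96) and *CCS* (−0.92), which had risen, line 6 was the higher, and for *OPR3* (1.01) line 5.

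In 4 of the 146 genes 1 array of the complemented plants stood apart from the other 3, its gap to the nearest of them taking nearly the whole range by Dixon's test, and chance gives this in about 1 of 20 groups. These were At2g17970 (0.88 of the range), *UCL1* (0.99), *PDIL2-2* (0.85) and *GPX1* (0.91). In each of them the array was line 5 replicate 2, which read above the other 3 for the first 3 genes and below them for *GPX1*.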

How the results depend on the processing

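The 8947 calls were 4113 with the 3'/5' signal as a covariate, 3045 higher in place of 4733 and 1068 lower in place of 4214 (918 at 2-fold or more in place of 2299), so that 74.0% of calls were higher in place of 52.9%. Calls lower were 6907 with no filter, which tests more probe sets, and 2652 among the 8000 brightest (1516 at 2-fold or more), which tests fewer. Centring the arrays moved the median difference from 0.04 to 0.17. Under the other settings each count stayed within 1.5 times, and leaving out an array in turn gave 8336 to 8745 calls. The difference in 3'/5' signal was −2.24 to −2.06 when an array was left out, where the smallest possible p is 0.0667 or 0.10. The numbers of the replicates did not pair the samples (correlations of same-numbered arrays of −0.07 to 0.13), and with replicate number as a block 8438 probe sets were called, 4551 higher and 3887 lower.

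With the covariate the direction turned for *RCA* (−0.55), *LHCB4.1* (−1.38), *LHCB4.2* (−1.15), *APX3* (−0.067), *APX1* (−0.41), *PORB* (−0.61), *CAT3* (−1.16), *COR47* (−0.14), At5g23540 (−0.085), At5g01160 (−0.26) and *LTI78* (−1.02), and for the medians of the peroxiredoxins (−0.17), glutaredoxins (0.15), auxin list (0.27), ethylene list (0.050) and cold shock list (−0.056). The median over all probe sets tested itself moved from 0.04 to 0.36 with the covariate. The glutaredoxin, auxin and ethylene medians lay below that of all probe sets in both fits. Relative to gene length it turned for the medians of the glutaredoxins (0.13), auxin list (0.050), ethylene list (0.14), HSP70 chaperones (−0.19), chloroplast-encoded genes (0.11) and ubiquitin-conjugating list (−0.27). The causes were not tested. *LTI78*, at 0.01, turned with the replicate block (−0.11), line 6 alone (−0.041), array weights (−0.035) and without line 5 replicate 1 or 2 (−0.0038 and −0.012), and leaving out an array gave −0.012 to 0.030.

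The remaining medians that turned lay near 0. The ethylene list was 0.038 with centring, and −0.17 to 0.068 when an array was left out. The cold shock list was −0.031 with quantile normalization, −0.048 with the replicate block, −0.077 with line 6 alone, −0.066 with array weights, and −0.031 to 0.098 when an array was left out. In the same order the ubiquitin-conjugating list was −0.053, −0.0044, −0.00051, −0.0065, and −0.050 to 0.089. With line as a random block 6 of the named genes lost their call, *LHCB4.1*, *LHCB4.3*, At1g80380, At1g27595, *GLX2-5* and *COR15A*.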
